A study of Arabidopsis thaliana with 12 samples.

Results

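BCAT4, UGT74B1 and GSTU20 encode enzymes that build glucosinolates, and PYK10 encodes a beta-glucosidase that breaks such compounds down. They were followed in whole seedlings of Arabidopsis thaliana that were 10 days old, on 12 one-colour arrays with 3 arrays in each of 4 groups. The groups were the Columbia wild type (WT) at 16C and at 23C, and the mutant pft1-1, in the Columbia background, at the same temperatures. All seedlings grew on agar plates with MS salts in continuous cool-white light of 80 micromoles per second and square metre. The mutant carries a lesion in PFT1, the MED25 subunit of Mediator, the complex that passes signals from transcription factors to RNA polymerase. It is a single mutant line, so an effect of PFT1 and any other difference between the lines cannot be told apart. The members are the probe sets to which the annotation gives BCAT4, UGT74B1, GSTU20 or PYK10 as the only gene. There were 4 such probe sets, 1 for each of the 4 genes, among 22746 probe sets tested and 13356 genes named. Their identifiers are AT3G19710 (BCAT4, probe set 257021_at), AT1G24100 (UGT74B1, 264873_at), AT1G78370 (GSTU20, 260745_at) and AT3G09260 (PYK10, 259009_at).

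Glucosinolates are sulfur-rich defence compounds of the cabbage order, made from amino acids such as methionine and tryptophan. For the methionine-derived (aliphatic) kind, the amino acid is first lengthened in cycles, which BCAT4 starts by removing the amino group. The core is then formed through an aldoxime, a conjugate with glutathione (a step in which GSTU20 is thought to act) and a thiohydroximate, to which UGT74B1 adds glucose. When tissue is damaged, beta-glucosidases meet the stored compounds and release toxic products. PYK10, also called BGLU23, is a main protein of ER bodies, spindle-shaped compartments of seedlings and roots, and can cleave indole glucosinolates. Synthesis responds to the hormone jasmonate through the factors MYC2, MYC3 and MYC4, and MED25 is known to bind MYC2.

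Values are log2 expression per probe set, so a difference of 1 is a doubling of signal. Array medians ran from 5.07 to 5.25, and a lower quartile of 2.52 over all values is taken as near background. The 4 arrays with replicate letter C, 1 in each group, stood apart. Their control transcripts had a 3' minus 5' difference of 3.52 to 4.53 on a log2 scale, against 2.64 to 3.07 on the other 8 arrays, those of letters A and B. This measure rises when RNA or labelling is less complete, and it was highest, at 4.53, on replicate C of pft1-1 at 23C. Control probe sets for poly-A spike-ins averaged 4.57 to 8.72 on the letter C arrays, against 2.45 to 2.54 on the others. Within letter C they stood at 5.46 (16C) and 4.57 (23C) in WT and at 8.72 and 8.01 in pft1-1. The genotypes thus also differed in spike-in signal in that letter. RCA and PRK, the 2 measured genes of 12 green shoot markers, averaged from 13.02 to 14.72 in all groups, as in green tissue, and EXPA7 of root hair cells was the 1 measured gene of 15 root markers. No probe set was annotated to PFT1, so the mutation itself was not checked here.

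BCAT4 was at an even level at 16C in both genotypes. Its values on replicates A, B and C were 9.43, 9.87 and 9.69 in WT and 9.94, 9.52 and 9.69 in pft1-1. At 23C they were 7.95, 9.51 and 10.72 in WT and 7.15, 6.41 and 3.75 in pft1-1. All 3 mutant arrays at 23C lay below the other 9 arrays, and the WT arrays at 23C spread widely on both sides of the 16C values.

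UGT74B1 varied less. At 16C its values were 8.59, 8.81 and 8.56 in WT and 9.19, 8.93 and 8.71 in pft1-1, which overlap. At 23C they were 8.68, 9.94 and 9.63 in WT and 8.50, 8.46 and 7.24 in pft1-1. The 3 mutant arrays at 23C were the lowest of all 12, although replicate A of WT at 23C was close to them.

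GSTU20 gave 10.62, 10.63 and 9.65 in WT and 11.77, 11.30 and 11.13 in pft1-1 at 16C, where all mutant arrays were above all WT arrays. At 23C it gave 8.46, 9.80 and 10.04 in WT and 8.19, 8.82 and 6.12 in pft1-1. These groups overlap, because replicate A of WT lay below replicate B of pft1-1.

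PYK10 gave strong signals throughout. At 16C it stood at 13.24, 12.92 and 12.98 in WT and at 13.15, 12.84 and 12.34 in pft1-1. The 23C values were 12.29, 12.79 and 12.33 in WT and 11.86, 12.28 and 11.40 in pft1-1. Mutant arrays were below WT arrays at 23C by a narrow gap, and within each genotype all arrays at 23C were below all arrays at 16C.

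**Figure D1:**
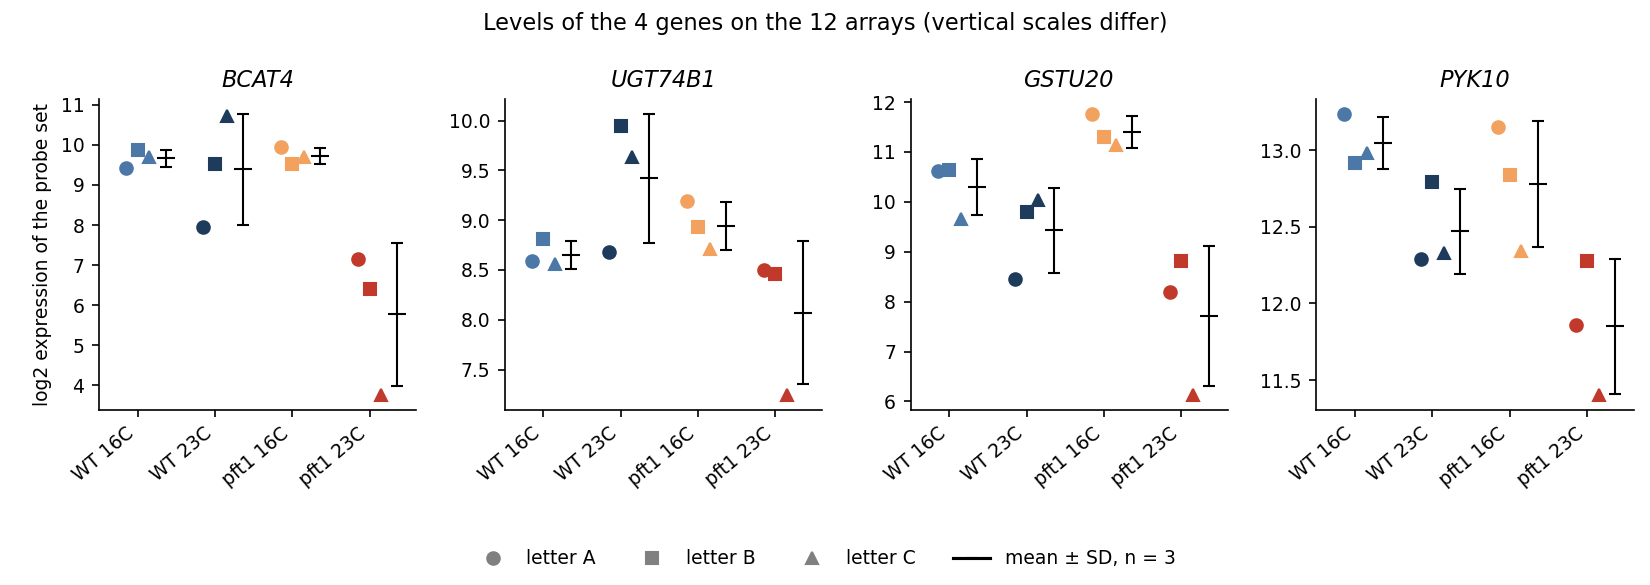
Log2 expression of BCAT4, UGT74B1, GSTU20 and PYK10 on each of 12 arrays, in panels with different vertical scales. Colours mark the 4 groups, symbols the replicate letters, and black bars the mean ± SD (n = 3); replicate C of pft1-1 at 23C is the lowest array for all 4 genes.

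The order of the group means was not the same for the 4 genes. BCAT4 averaged 9.72 ± 0.21 (SD, n = 3) in pft1-1 at 16C, 9.66 ± 0.22 (SD, n = 3) in WT at 16C, 9.39 ± 1.39 (SD, n = 3) in WT at 23C and 5.77 ± 1.79 (SD, n = 3) in pft1-1 at 23C. The first 3 of these differ by less than their spread. UGT74B1 was highest in WT at 23C, at 9.42 ± 0.65 (SD, n = 3), then came pft1-1 at 16C with 8.94 ± 0.24 (SD, n = 3), WT at 16C with 8.65 ± 0.14 (SD, n = 3) and pft1-1 at 23C with 8.07 ± 0.72 (SD, n = 3). The steps next to the highest and the lowest group are within the larger SD of the neighbours, and the middle step is slightly larger than either SD, with arrays that overlap. GSTU20 was highest in pft1-1 at 16C, at 11.40 ± 0.33 (SD, n = 3), followed by WT at 16C with 10.30 ± 0.56 (SD, n = 3), WT at 23C with 9.43 ± 0.85 (SD, n = 3) and pft1-1 at 23C with 7.71 ± 1.41 (SD, n = 3). PYK10 went from 13.05 ± 0.17 (SD, n = 3) in WT at 16C to 12.78 ± 0.41 (SD, n = 3) in pft1-1 at 16C, 12.47 ± 0.28 (SD, n = 3) in WT at 23C and 11.85 ± 0.44 (SD, n = 3) in pft1-1 at 23C. The mutant at 23C was last for every one of the 4 genes.

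Spread between replicates was large for the synthesis genes. The residual SD of the model was 1.14 for BCAT4, larger than in 99.3% of all probe sets. It was 0.89 for GSTU20 (98% of probe sets had a smaller one), 0.50 for UGT74B1 (87.4%) and 0.34 for PYK10 (68.2%). In BCAT4, UGT74B1 and GSTU20 the SD at 23C exceeded that at 16C in both genotypes. The model shares 1 SD over all groups, so for these genes its SE overstates the spread at 16C and understates that at 23C. Replicate C of pft1-1 at 23C was the lowest array for 4 of 4 genes, and it was the lowest for 13.2% of all probe sets and for 20.7% of the brighter ones (the upper 60% by mean). Its 3' minus 5' control difference is given above, and it had the lowest of the 12 array quality weights, 0.16. The fit of these weights stopped before it reached its convergence tolerance, and they were used as returned. With those weights the difference between genotypes at 23C, described next, was -2.98 for BCAT4, -1.37 for UGT74B1, -1.42 for GSTU20 and -0.67 for PYK10.

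At 23C the question was whether seedlings without normal PFT1 differ from WT under warmth. All 4 genes were lower in pft1-1, and none passed at an adjusted p under 0.05 over all 22746 probe sets, the threshold for a call. BCAT4 differed by -3.62 on the log2 scale (SE 0.88, 95% interval -5.60 to -1.64, limma adjusted p = 0.386), a 12.3-fold lower mean. The difference was -1.35 for UGT74B1 (SE 0.39, limma adjusted p = 0.476), -1.72 for GSTU20 (SE 0.68, limma adjusted p = 0.612) and -0.62 for PYK10 (SE 0.26, limma adjusted p = 0.635). The count was thus 0 of 4 called in limma, where 0.022% of all probe sets were called. At an unadjusted p under 0.05 all 4 were lower, as were 3.69% of all probe sets, but the genes were chosen with these differences known. Groups did not overlap for BCAT4, UGT74B1 and PYK10, 3 of 4 genes, against 7.95% of all probe sets (3.75% with the mutant lower). The median difference of the 4 genes was -1.54 and that of all probe sets 0.01.

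Size depended on the letter. Between arrays of letter A the difference was -0.80 for BCAT4, -0.18 for UGT74B1, -0.27 for GSTU20 and -0.43 for PYK10. For letter B it was -3.10, -1.48, -0.97 and -0.51 in the same order of genes. For letter C it was -6.97, -2.39, -3.92 and -0.93. All 12 differences were below 0, smallest in letter A and largest in letter C for each gene. The spike-in signal of letter C also differed between genotypes, and its part in these differences was not tested. With only letters A and B, 8 arrays, the group difference was -1.95 for BCAT4, -0.83 for UGT74B1, -0.62 for GSTU20 and -0.47 for PYK10. With the mutant's replicate C at 23C left out it was -2.61 for BCAT4, -0.94 for UGT74B1, -0.93 for GSTU20 and -0.40 for PYK10.

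**Figure D2:**
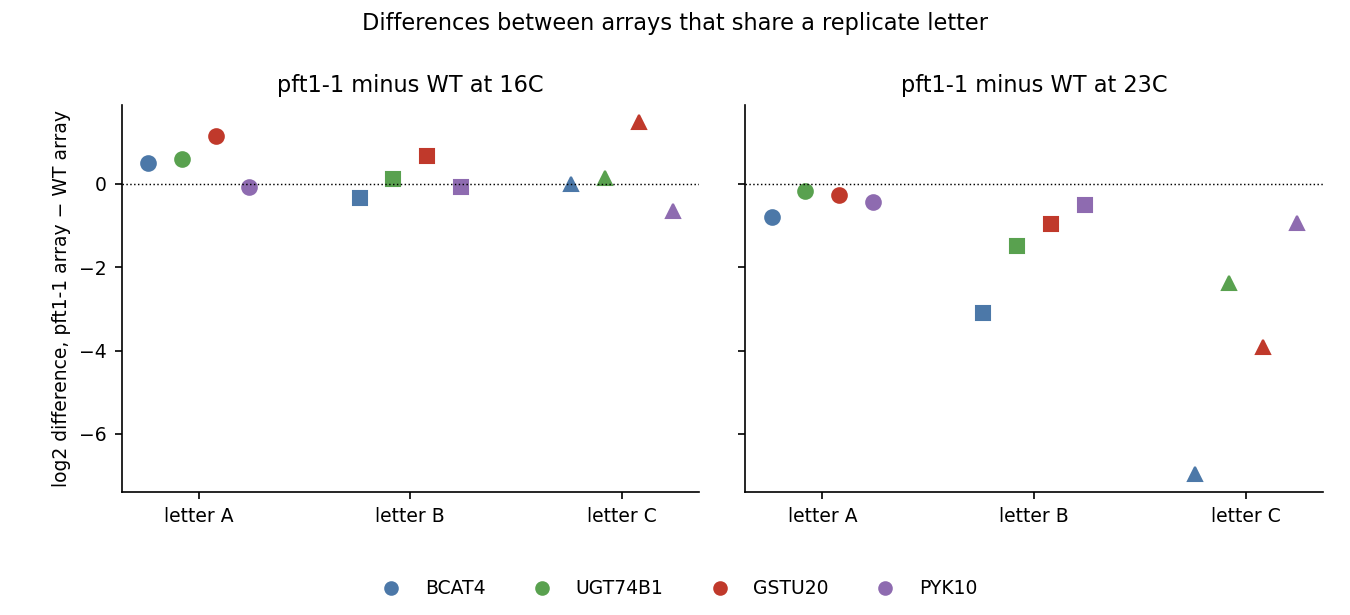
Log2 difference between the pft1-1 and the WT array of the same replicate letter, for 4 genes at 16C (left) and 23C (right). At 23C all points lie below 0 and reach -6.97 for BCAT4 in letter C; at 16C they lie between -0.64 and 1.48.

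At 16C the same comparison gave differences of both signs. GSTU20 differed most, by 1.10 (SE 0.68, 95% interval -0.44 to 2.64, limma adjusted p = 1.0), with a higher mutant mean and groups that did not overlap. The difference was 0.29 for UGT74B1 (SE 0.39), 0.05 for BCAT4 (SE 0.88) and -0.27 for PYK10 (SE 0.26), each with a limma adjusted p of 1.0 and overlapping groups. The 95% interval for BCAT4, -1.93 to 2.03, is wide, as it uses the SD shared over all groups. At 16C itself the SD was 0.22 in WT and 0.21 in pft1-1. Equality was not tested, so equal levels were not shown. None of the 4 was called in limma, 0 had an unadjusted p under 0.05 (4.62% of all probe sets had), and 0.0352% of all probe sets were called. GSTU20 was the 1 gene of 4 without overlap, which 12.8% of all probe sets showed. Of all probe sets, 0.506% differed upward by as much as GSTU20. The sign for BCAT4 turned negative with array quality weights (-0.12) and without replicate A of WT (-0.07) or of pft1-1 (-0.06) at 16C.

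Averaged over both temperatures, 6 arrays against 6, pft1-1 differed from WT by -1.79 for BCAT4 (SE 0.62, limma adjusted p = 0.666). PYK10 differed by -0.45 (SE 0.19, limma adjusted p = 0.777), UGT74B1 by -0.53 (SE 0.27, limma adjusted p = 0.891) and GSTU20 by -0.31 (SE 0.48, limma adjusted p = 1.0). In this average 0 of 4 were called and 2, BCAT4 and PYK10, had an unadjusted p under 0.05 (6.24% of all probe sets had), while 0.0572% of all probe sets were called. For GSTU20 the average joins a positive difference at 16C with a negative one at 23C. It turned positive when the mutant's replicate C at 23C was left out (0.09) and on letters A and B alone (0.14).

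For BCAT4, GSTU20 and PYK10 the difference between temperatures within the mutant was larger than between genotypes at either temperature, while for UGT74B1 it was smaller than between genotypes at 23C. In pft1-1 at 23C, compared with 16C, BCAT4 fell by 3.94 on the log2 scale (SE 0.88, 95% interval -5.93 to -1.96, limma adjusted p = 0.0157), a 15.4-fold lower level. GSTU20 fell by 3.69 (SE 0.68, 95% interval -5.23 to -2.15, limma adjusted p = 0.00754), a 12.9-fold lower level. PYK10 fell by 0.93 (SE 0.26, 95% interval -1.53 to -0.34, limma adjusted p = 0.0398), a 1.91-fold lower level. UGT74B1 differed by -0.87 (SE 0.39, limma adjusted p = 0.156) and was not called. So 3 of 4 genes were called lower, where 17.7% of all probe sets were called and 9.27% were called lower. The genes were chosen with earlier results of these data known, and the mutant arrays at 23C also set their difference from WT. The count is thus no test of the 4 genes as a set. Groups did not overlap for any of the 4, as for 47.9% of all probe sets (15.9% with 23C lower). Of all probe sets, 0.286% differed downward by as much as BCAT4 and 0.4% by as much as GSTU20, whereas 8.59% did so by as much as PYK10.

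The falls of BCAT4 and GSTU20 were present in each letter. From A to C the difference was -2.79, -3.11 and -5.93 for BCAT4 and -3.58, -2.47 and -5.01 for GSTU20. PYK10 gave -1.30, -0.56 and -0.94. When the mutant's replicate C at 23C was left out, BCAT4 differed by -2.93 (limma adjusted p = 0.0289) and GSTU20 by -2.89 (limma adjusted p = 0.0131), both still called, while PYK10 differed by -0.71 and was not (limma adjusted p = 0.119). On letters A and B alone BCAT4 (-2.95, limma adjusted p = 0.0439) and GSTU20 (-3.03, limma adjusted p = 0.032) were called and PYK10 (-0.93, limma adjusted p = 0.0853) was not. Leaving out replicate A of pft1-1 at 16C took the call from BCAT4 (-3.83, limma adjusted p = 0.0527). So did a fit with only the pft1-1 arrays (limma adjusted p = 0.0548). The call of PYK10 was lost without any 1 of 8 of the 12 arrays.

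In WT the same temperatures gave 0 of 4 calls in limma and 0 genes with an unadjusted p under 0.05 (18.7% of all probe sets had one), while 4.89% of all probe sets were called. BCAT4 differed by -0.27 (SE 0.88, 95% interval -2.25 to 1.71, limma adjusted p = 0.939) and GSTU20 by -0.87 (SE 0.68, 95% interval -2.40 to 0.67, limma adjusted p = 0.595). When the WT array of letter A at 23C was left out, the GSTU20 difference was -0.38 and that of BCAT4 0.45. On letters A and B alone GSTU20 differed by -1.49. PYK10 differed by -0.58 (SE 0.26, limma adjusted p = 0.285), and its groups did not overlap, as for 26% of all probe sets. UGT74B1 was the 1 gene with a positive difference, 0.76 (SE 0.39, limma adjusted p = 0.347). It passed in 1 setting, array quality weights, with 1.06 (limma adjusted p = 0.0155), and the fit of those weights had not fully converged. Letters did not give 1 sign for BCAT4 (-1.48, -0.36 and 1.03 from A to C) or GSTU20 (-2.15, -0.83 and 0.39). They did for UGT74B1 (0.09, 1.13 and 1.07) and PYK10 (-0.95, -0.13 and -0.65).

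**Figure D3:**
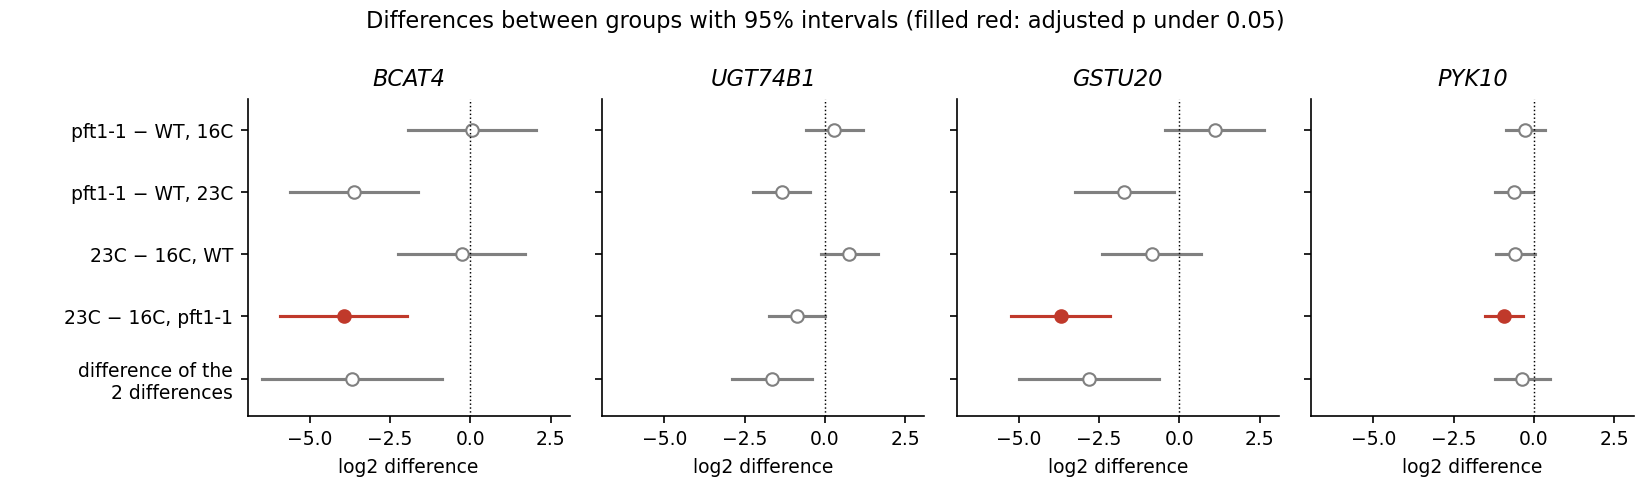
Log2 differences of 4 genes with 95% intervals in 5 comparisons; filled red points have an adjusted p under 0.05. The 3 filled points are BCAT4, GSTU20 and PYK10 between temperatures in pft1-1, and the bottom line is the difference between genotypes at 23C less that at 16C.

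A call in the mutant and none in WT does not show that the genotypes differ in their temperature response, so that difference was tested as an interaction. It was -3.67 for BCAT4 (SE 1.24, 95% interval -6.48 to -0.87, limma adjusted p = 0.784) and -2.82 for GSTU20 (SE 0.96, 95% interval -5.00 to -0.65, limma adjusted p = 0.787). It was -1.64 for UGT74B1 (SE 0.55, 95% interval -2.88 to -0.40, limma adjusted p = 0.782) and -0.36 for PYK10 (SE 0.37, 95% interval -1.20 to 0.49, limma adjusted p = 0.947). In limma 0 of 4 genes and 0% of all probe sets were called. An unadjusted p under 0.05 was found for the 3 synthesis genes, and for 5.54% of all probe sets (2.6% below 0). The comparisons at 23C and within pft1-1 share the 3 mutant arrays at 23C, so they are not separate evidence.

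EXPA7, an expansin gene of root hairs, is the marker to set beside PYK10, which is strong in roots. It stood at 5.42, 2.04 and 2.34 in WT and at 5.07, 4.65 and 2.24 in pft1-1 at 16C. At 23C it ran from 2.01 to 2.04 in WT and from 2.05 to 2.34 in pft1-1, near background. Of 6 arrays at 16C, 3 thus had a raised EXPA7 signal, and its temperature difference did not pass in WT (-1.24) or in pft1-1 (-1.77). In whole seedlings, fewer cells of a type and less RNA per cell cannot be told apart, and the part of root content in the PYK10 values was not tested.

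Few other genes of the pathway could be read by name. A listed gene counts as measured if the annotation gives it, under a matching name, as the only gene of a probe set. The annotation named no gene for 8730 of 22746 probe sets and several for 503. A gene not measured here may thus still be on the array. Of 45 genes listed for aliphatic, indole and shared synthesis, 4 had a probe set with a matching name: BCAT4, GSTU20, UGT74B1 and AOP3. AOP3, a dioxygenase that modifies the side chain, stayed at 2.55 to 2.86 on all arrays, near background. Loci AT2G31790 and AT2G25450, on the synthesis list, carry no symbol in the gene table. They have values on all arrays but are outside the counts of measured genes. In WT the mean of AT2G31790 was 8.59 ± 0.18 (SD, n = 3) at 16C and 9.19 ± 0.09 (SD, n = 3) at 23C. In the mutant it was 8.98 ± 0.19 (SD, n = 3) and then 8.44 ± 0.38 (SD, n = 3). Its difference between genotypes was -0.75 at 23C (SE 0.18, limma adjusted p = 0.404) and 0.40 at 16C (SE 0.18, limma adjusted p = 1.0). AT2G25450 gave -0.02 at 23C (SE 0.24) and was not called in any comparison.

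Among 13 regulators 2 were measured, the jasmonate-related factors MYC3 and MYC4. Neither was called: at 23C pft1-1 differed from WT by 0.16 for MYC3 (SE 0.16, limma adjusted p = 0.911) and by 0.08 for MYC4 (SE 0.34, limma adjusted p = 1.0). With temperature in pft1-1, MYC3 differed by 0.40 (SE 0.16, limma adjusted p = 0.122), opposite in sign to the 4 members. Locus AT1G04770, on the list of regulators without a symbol in the gene table, gave 7.36, 7.19 and 6.50 at 16C and 8.54, 8.87 and 7.84 at 23C in pft1-1. It was higher at 23C in all 3 letters and did not pass (1.40, SE 0.53, limma adjusted p = 0.104). The transporters GTR1 and GTR2 move glucosinolates between tissues, and both were measured. GTR2 differed by -1.63 at 23C (SE 0.89, limma adjusted p = 0.765), with mutant replicates A, B and C at 6.51, 7.27 and 3.23, the last far below the others. GTR1 differed by -0.49 (SE 0.34, limma adjusted p = 0.849). Of 20 breakdown genes 1 was measured, the beta-glucosidase BGLU28. It stood at 5.35, 3.32 and 4.42 in WT at 23C and at 2.58 to 2.74 in the mutant there, near background, and did not pass (-1.72, SE 0.44, limma adjusted p = 0.418).

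The ER-body list had 7 measured genes of 17, PYK10 among them. Between temperatures in pft1-1, PYK10 and the jacalin lectin gene JAL34 fell and 0 rose, 2 of 7 called lower, where 9.27% of all probe sets were called lower. This list too was chosen with earlier results of these data known, so the count is no test of it. The call of PYK10 was lost without any 1 of 8 arrays, as given above. JAL34 fell by 0.98 (SE 0.22, limma adjusted p = 0.0172), and in WT it differed by -0.87 (SE 0.22, limma adjusted p = 0.06). JAL34 lost its call when the mutant's replicate C at 23C (limma adjusted p = 0.0509) or its replicate B at 16C (limma adjusted p = 0.0563) was left out. NAI1, the factor needed for ER bodies, differed by -0.03 (SE 0.25, limma adjusted p = 0.929), and NAI2, a protein of those bodies, by -0.43 (SE 0.29, limma adjusted p = 0.328). The lectin genes JAL22 (0.35), JAL33 (0.31) and JAL23 (-0.00, near background) were not called. The median of the 7 was -0.03, against 0.04 over all probe sets. Between genotypes 0 of 7 were called at 23C in limma, with PYK10 the 1 gene at an unadjusted p under 0.05, and 6 of 7 differences were below 0, as were 42.9% of all.

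Sulfur supply had 3 measured genes of 12. APS3, an ATP sulfurylase that activates sulfate, fell between temperatures in pft1-1. It stood at 7.79, 7.70 and 7.59 at 16C and at 6.55, 6.49 and 5.17 at 23C in the mutant, with no overlap. WT gave 6.89, 7.23 and 6.89 at 16C and 6.51, 7.79 and 8.10 at 23C, which overlap. The difference in pft1-1 was -1.62 (SE 0.45, limma adjusted p = 0.0369), and the WT difference was 0.47 (SE 0.45, limma adjusted p = 0.693). APS3 was not called when the mutant's replicate C at 23C was left out (-1.17, limma adjusted p = 0.0989), nor without any 1 of 7 other arrays. Sulfite reductase SIR (-0.47, SE 0.21, limma adjusted p = 0.161) and the second ATP sulfurylase APS4 (0.09, SE 0.21, limma adjusted p = 0.766) did not pass. Over all pathway lists with the 4 members left out, 2 of 15 measured genes were called lower and 0 higher with temperature in pft1-1, against 9.27% and 8.41% of all probe sets. That share is near the background. Loci AT2G31790, AT2G25450 and AT1G04770 are outside this count and were not called in that comparison.

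**Figure D4:**
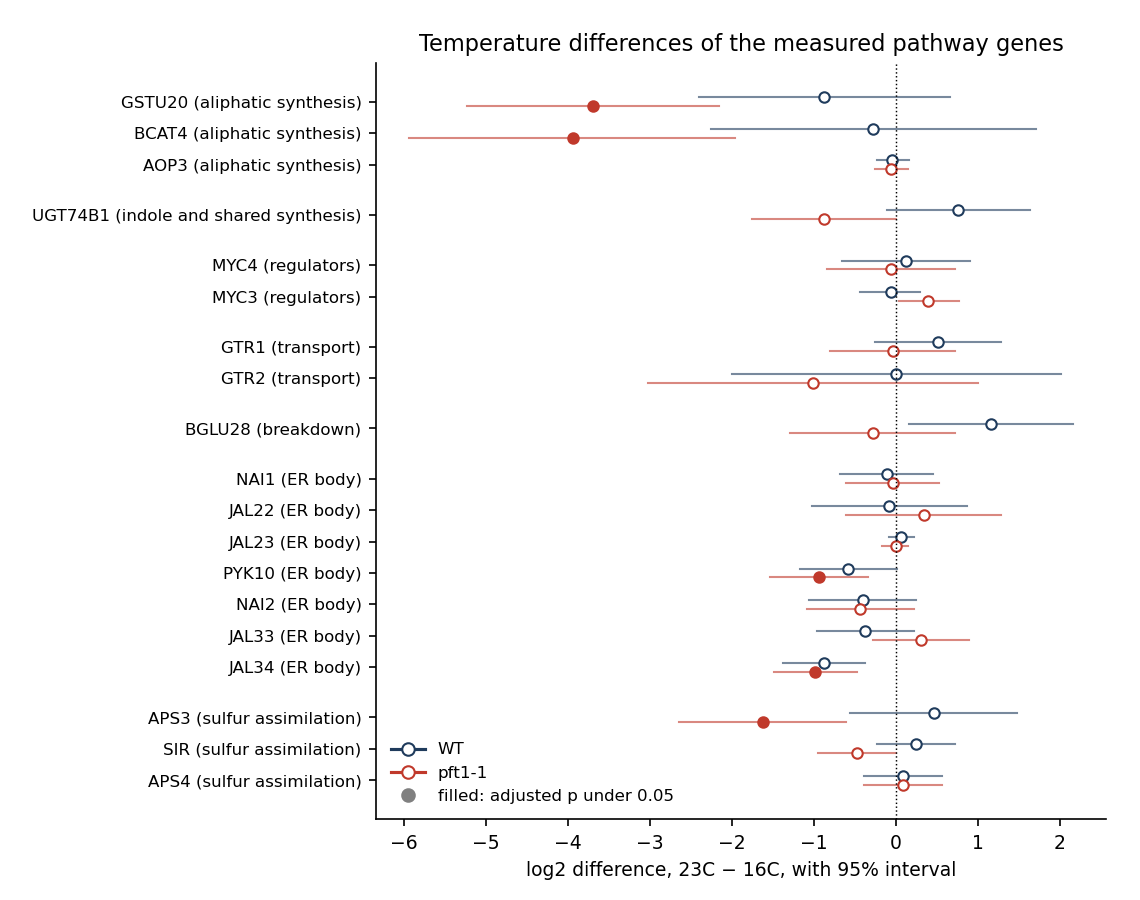
Log2 difference between 23C and 16C with its 95% interval for the measured genes of each pathway list, in WT (blue) and pft1-1 (red); filled points have an adjusted p under 0.05. BCAT4, GSTU20, PYK10, JAL34 and APS3 are the 5 filled points, all in pft1-1 and below 0.

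Relatives of the members did not all move with them. GSTU20 lies in a row of tau glutathione S-transferase genes on chromosome 1, with GSTU21 and GSTU22 on one side and GSTU19 on the other. GSTU22 averaged 6.51 in WT and 8.02 in pft1-1 at 16C, and 3.56 and 4.26 at 23C. It fell with temperature in both genotypes, by 2.94 in WT (SE 0.37, limma adjusted p = 0.0044) and by 3.76 in pft1-1 (SE 0.37, limma adjusted p = 0.000835). GSTU25 and GSTU26 were also called lower at 23C in both genotypes, so 3 of 6 measured relatives of GSTU20 were called in each. Of all probe sets, 3.15% were called lower in WT and 9.27% in pft1-1. These relatives were listed with earlier results of these data known, so the counts are no test of them as a set. In WT the call of GSTU26 (-2.60, limma adjusted p = 0.0357) was lost without any 1 of 8 of the 12 arrays, with an adjusted p of up to 0.115. On letters A and B alone GSTU22 and GSTU25 were not called in WT (limma adjusted p = 0.0792 and 0.0735). GSTU20 was called in pft1-1 alone, with the interaction given above not passing. GSTU21 stayed near background on all arrays.

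Of the 5 relatives of BCAT4 looked for, 1 was measured with a name, ATBCAT-5, which differed by -0.16 with temperature in pft1-1 (SE 0.14, limma adjusted p = 0.425). AT1G50110, on that list by locus and without a symbol in the gene table, fell by 2.28 there (SE 0.52, limma adjusted p = 0.0172). That call was lost when the mutant's replicate C at 16C or A at 23C was left out (limma adjusted p = 0.0504 and 0.0539). In WT AT1G50110 differed by -1.73 (SE 0.52, limma adjusted p = 0.1) and was not called. Of 2 relatives of UGT74B1 measured with a name, UGT74F1 was near background and UGT74D1 differed by -0.45 (SE 0.40, limma adjusted p = 0.454). AT2G31790, described above, is on that list too by locus, and differed by -0.54 (SE 0.18, limma adjusted p = 0.0746). Among 4 measured relatives of PYK10, BGLU25 was called lower in pft1-1, falling by 1.66 (SE 0.30, limma adjusted p = 0.00708), and the other 3 were not. In WT BGLU25 differed in the same direction, by -0.88 (SE 0.30, limma adjusted p = 0.15), and was not called. BGLU21 and BGLU22, close relatives of PYK10, share 1 probe set and were not used here.

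Likeness over the 12 arrays was described with Pearson's r, with no test, since the arrays share groups and letters. Candidates were the other 6332 probe sets with 1 gene and a range of at least 1 on the log2 scale. For UGT74B1 the most alike was the sulfurylase gene APS3 (r = 0.906), followed by AT1G11440 (r = 0.88) and AT2G31790 (r = 0.864), and both APS3 and AT2G31790 stayed among the first 5 after letter means were taken off (r = 0.91 and r = 0.881). For BCAT4 the nearest were AT5G44720 (r = 0.938) and AT3G53560 (r = 0.937). GSTU20 was followed by AT2G43550 (r = 0.968) and AT3G13930 (r = 0.966), and PYK10 by AT1G75900 (r = 0.972) and AT3G20370 (r = 0.954). With letter means taken off, AT5G44720 (r = 0.944), AT3G13930 (r = 0.983) and AT1G75900 (r = 0.97) stayed among the first 5 of BCAT4, GSTU20 and PYK10. AT3G53560, AT2G43550 and AT3G20370 did not.

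Among the members, BCAT4 and GSTU20 were most alike (r = 0.88), and UGT74B1 and PYK10 least (r = 0.557). With the mutant's replicate C at 23C left out these values were 0.743 and 0.17, and those of UGT74B1 with BCAT4 and with GSTU20 went from 0.804 to 0.561 and from 0.645 to 0.276. The likeness was thus lower for each of these pairs without that array.

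**Figure D5:**
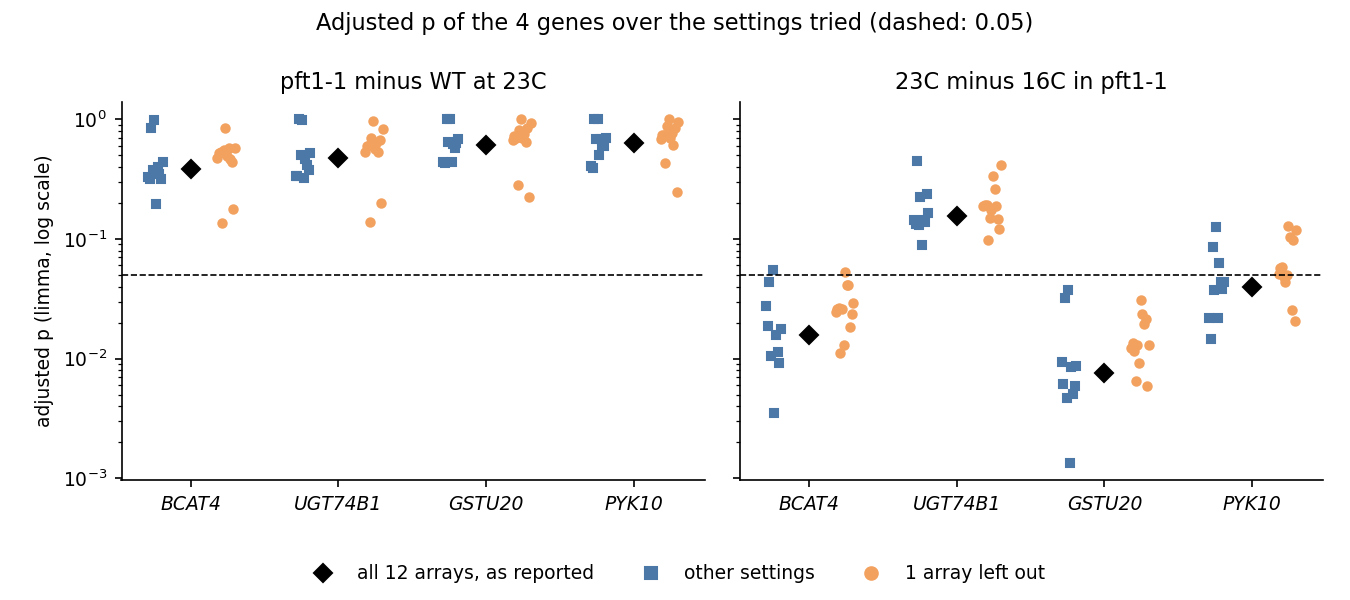
Limma adjusted p (log axis) of 4 genes for pft1-1 minus WT at 23C (left) and for 23C minus 16C in pft1-1 (right), as reported (black), under other settings (blue) and with 1 array left out (orange). No point on the left lies below the dashed line at 0.05, and on the right every GSTU20 point does.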

How the data were processed

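Each array has 1 log2 expression value per probe set in the deposited table. RMA and affy are the tools listed by the submitters' processing notes, with no version. Biotin-labelled cRNA was made from 5 ug of total RNA, per the labels' protocols. Of 22810 probe sets, 64 controls were set aside and 22746 tested with no filter on low values. The annotation gave 1 gene to 13513 of them (59.4%).

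Group means on all 12 arrays were fitted in limma 3.58.1 under R 4.3.3 (lmFit, then eBayes; residual degrees of freedom 8, prior 1.05). P-values were adjusted by Benjamini-Hochberg over all probe sets. RNA was prepared independently for each sample, per the series' design text; with 3 arrays a group, precision is limited by their number. Members, lists and the naming rule (the 4 genes, all measured pathway and paralog genes, and the nearest by r) were chosen with earlier results of these data known. Letters may pair arrays: deviations of arrays sharing a letter correlated at 0.129, 0.473 and 0.158 between genotypes at 23C, at 0.421, 0.274 and 0.529 between temperatures in WT and at 0.2, 0.196 and 0.339 in pft1-1. On simulated data for pft1-1 minus WT at 23C, with 22746 probe sets, log2 changes of 1, 2 and 4 were recovered in 67.2%, 83.6% and 98.5% of cases, and 13 unchanged probe sets were called. The simulation gave each probe set normal noise of equal SD in all groups, with no likeness between arrays of a letter. Real arrays differ from that, as the correlations above show. For BCAT4 the SD was 0.21 in pft1-1 at 16C and 1.79 at 23C. These rates are over probe sets in general and do not apply to the 4 genes, whose spread is larger than in most. Plots used Python 3.11.15 and matplotlib 3.10.9. Alternatives were the letters or letter C as a block, array quality weights, renewed normalisation or centring, an intensity trend, dim probe sets left out, fewer arrays in the fit, and each array left out in turn.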

Additional observations from a re-analysis of the deposited data

Results flagged for a closer look

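All probe sets on the lists were screened, relatives and markers included. For 5 genes the sign of a difference was opposite at the other temperature or in the other genotype in all 3 letters. The interaction in limma, pft1-1 minus WT at 23C less that at 16C, did not pass for any of them. Between genotypes at 16C the letters did not all pair the arrays. For UGT74B1 it was -1.64 (SE 0.55, limma adjusted p = 0.782). The mutant was higher in every letter at 16C (0.60, 0.12 and 0.15 from A to C) and lower in every letter at 23C (-0.18, -1.48 and -2.39), and warmth went with a higher level in WT and a lower one in pft1-1 in every letter. AT2G31790 showed the same signs, with an interaction of -1.15 (SE 0.26, limma adjusted p = 0.592). GSTU20 was higher in the mutant in every letter at 16C (1.15, 0.67 and 1.48) and lower at 23C (-0.27, -0.97 and -3.92), with an interaction of -2.82 (SE 0.96, limma adjusted p = 0.787). For SIR the interaction was -0.72 (SE 0.30, limma adjusted p = 0.88), and its difference in letter A at 16C was only 0.01. For MYC3, with signs turned the other way, the interaction was 0.47 (SE 0.23, limma adjusted p = 0.938). Opposite signs in all letters between 16C and 23C were found for 3.67% of all probe sets, and between WT and pft1-1 for 1.22%. The lists were chosen with earlier results of these data known, so the 5 genes are not compared with these shares.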

How the results depend on the processing

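Over the settings tried, 520 values for the 4 genes in 6 comparisons were recomputed, and 500 kept their direction and their side of the threshold. Of the rest 6 changed sign, all uncalled: BCAT4 at 16C between genotypes (-0.12 with array quality weights; from -0.07 to 0.15 with 1 array left out, negative without replicate A of WT, -0.07, or of pft1-1, -0.06, at 16C), GSTU20 averaged over temperatures (0.14 on letters A and B alone; from -0.59 to 0.09 with 1 array left out, the last without mutant replicate C at 23C) and BCAT4 by temperature in WT (from -0.93 to 0.45 with 1 array left out, the last without replicate A of WT at 23C). Another 13 values lost their call, all for BCAT4 or PYK10 between temperatures in pft1-1, and 1 gained one. Most of the 500 were uncalled differences that stayed uncalled. Between temperatures in pft1-1, 3 genes were called, and 1 to 3 with an array left out. GSTU20 alone was called at an adjusted p under 0.01, and alone with only the 6 arrays compared. In WT 1 was called with array quality weights and 0 otherwise. With the letters as replicate block the adjusted p in pft1-1 was 0.0277 for BCAT4, 0.00941 for GSTU20 and 0.0218 for PYK10, and this block changed no call of the 4 genes in any comparison. Between genotypes at 16C deviations correlated at 0.357, -0.101 and 0.474 for letters A, B and C, so pairing by letter was not borne out for letter B. PYK10 also lost its call when arrays were quantile normalised again (-0.81, limma adjusted p = 0.0634). These causes were not tested. Calls of APS3, JAL34 and AT1G50110 in pft1-1 were lost on letters A and B alone, with adjusted p of 0.14, 0.0646 and 0.0932; the settings for these genes were chosen after seeing the data. Over all probe sets, calls for pft1-1 minus WT at 23C went from 5 to 54 without replicate B of pft1-1 at 23C and to 0 with only the arrays compared, and at 16C from 8 to 216 with array quality weights.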
